A study of Mus musculus with 9 samples.

Results

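The 26 genes described here encode enzymes of cholesterol synthesis, the proteins through which cells sense sterols, and a sterol carrier and an esterifying enzyme that act on the product. They were chosen by gene name: all non-control probes carrying one of these names on the array were taken, and Msmo1 was accepted under its older array name, Sc4mol. All 26 genes had at least 1 probe, 53 probes in all, out of 28474 gene names on the array, and all 26 were among the 19990 genes that passed the filter on dim probes, which keeps a gene that is well above background on each of the 3 arrays of some group.

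RNA came from epithelial cells sorted from C57BL/6 mice, with 3 groups of 3 independent replicates and 1 array per replicate. The MHCIIhi group held small intestinal cells, freed with EDTA, that stained high for the epithelial adhesion molecule Epcam and high for MHC class II, the molecules that present peptides to helper T cells. The MHCIIlo group, titled so although its gate and cell type are given as intermediate, held cells of the same tissue with intermediate staining for both. The kidney group held Epcam+ cells freed with collagenase, dispase and DNase. All gates left out cells positive for CD45, a leukocyte surface protein, and for Fluorogold, used to mark dead cells. Each intestinal replicate pooled 3 mice and each kidney replicate 4 mice, so the spread between arrays is that between pools. No treatment or genetic change is named in the labels.

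Cholesterol is made from acetyl-CoA in the endoplasmic reticulum and cytosol through mevalonate, isoprenoid units, squalene and lanosterol. When membranes of the endoplasmic reticulum are low in sterols, Scap escorts the transcription factors encoded by Srebf1 and Srebf2 to the Golgi, where proteases release their active part, and the genes of the pathway are transcribed. When sterols are plentiful, the Insig proteins hold Scap back. In the small intestine, synthesis runs beside the uptake of dietary and biliary cholesterol, which absorptive cells esterify and export in lipoproteins.

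A level below is the log2 signal of a gene's brightest probe (the one with the highest mean over the arrays) minus the array's 75th percentile, so that 0 equals that percentile. Levels of different probes are not on a shared scale and are compared only between groups. A difference was called where limma's adjusted p was below 0.05 and its absolute log2 size at least 1. The percentile used for scaling ranged over 220.7 to 385.6 (MHCIIhi), 104.1 to 191.1 (MHCIIlo) and 615.5 to 790.8 (kidney) in units of processed signal, and 51.0% to 73.2% of spots were well above background. Replicates correlated at 0.972 to 0.994 over the genes tested. The arrays lay on 3 slides: MHCIIhi 1 and 2 on the first, MHCIIhi 3 with the 3 MHCIIlo arrays on the second, and the kidney arrays on the third, so kidney and slide cannot be told apart.

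Defining markers were found in the tissues that the labels name. The intestinal transcription factors Cdx1 and Cdx2 were well above background on all intestinal arrays and on none from kidney, and the tubule genes Umod and Kcnj1 on all kidney arrays and on none from intestine. Both intestinal groups held enterocyte transcripts, with a summed signal of the 10 listed genes of 904 to 2110 (MHCIIhi) and 3000 to 4510 (MHCIIlo) times the array's 75th percentile. All 10 proliferation genes were called higher in MHCIIhi, as were 4 of 5 crypt genes, against 14.9% of all genes tested. The proliferation sum was 89.5 to 180 there against 12.2 to 24.6 in MHCIIlo. In kidney, the 5 genes of the thick ascending limb and distal tubule summed to 728 to 881. The 6 genes of the proximal tubule summed to 47.7, 17 and 15.9 on kidney 1, 2 and 3, so that kidney 1 stood apart. Their sums were 9.52 to 32.4 (MHCIIhi) and 26.7 to 47.3 (MHCIIlo), which overlap those in kidney. Of these genes 5 were called higher in kidney than in intestine, and Cubn, a receptor that the small intestine also expresses, was called lower. All 5 endothelial genes were called higher in kidney than in intestine, with a sum of 21.6 to 48.9 against at most 0.218 in the intestine. In that comparison 27.4% of all genes tested were called higher and 24.8% lower.

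The bases just before the transcription start are shown for 6 genes, since the differences reported below are in transcript levels of genes known to share promoter elements. RefSeq's table for GRCm38.p6 held a promoter for 21 of the 26 genes and none for Fdps, Fdft1, Sqle, Stard4 and Soat2. Hmgcs1 was the 1 gene of these with a match to the sterol regulatory element searched, and the other five had the largest differences between kidney and intestine among called genes with a single promoter in the table. Each stretch holds the 150 bases before the start, 5′ to 3′ on the gene's strand, and lies at chr13:119690201-119690350 on the plus strand for Hmgcs1, which encodes HMG-CoA synthase, chr8:122443423-122443572 on the minus strand for Mvd, chr19:6067851-6068000 on the minus strand for Tm7sf2, chr8:64733579-64733728 on the minus strand for Sc4mol, chr9:42264301-42264450 on the minus strand for Sc5d and chr5:28071262-28071411 on the plus strand for Insig1. Capitals mark matches, on either strand, to the sterol regulatory element TCACNCCAC, the NF-Y box CCAAT or the GC box GGGCGG, and no 2 of the marked matches overlapped.
Hmgcs1: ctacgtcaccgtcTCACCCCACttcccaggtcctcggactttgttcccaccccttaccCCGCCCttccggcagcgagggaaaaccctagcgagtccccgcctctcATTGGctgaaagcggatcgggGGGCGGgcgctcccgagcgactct
Mvd: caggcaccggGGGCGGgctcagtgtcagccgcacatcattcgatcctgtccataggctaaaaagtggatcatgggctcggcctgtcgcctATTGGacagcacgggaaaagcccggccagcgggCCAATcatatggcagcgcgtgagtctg
Tm7sf2: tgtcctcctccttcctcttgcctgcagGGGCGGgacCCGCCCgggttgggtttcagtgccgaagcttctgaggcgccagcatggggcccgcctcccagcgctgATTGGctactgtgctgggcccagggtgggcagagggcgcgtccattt
Sc4mol: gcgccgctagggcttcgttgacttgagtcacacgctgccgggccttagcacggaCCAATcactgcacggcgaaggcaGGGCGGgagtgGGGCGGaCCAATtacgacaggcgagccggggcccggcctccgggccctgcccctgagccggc
Sc5d: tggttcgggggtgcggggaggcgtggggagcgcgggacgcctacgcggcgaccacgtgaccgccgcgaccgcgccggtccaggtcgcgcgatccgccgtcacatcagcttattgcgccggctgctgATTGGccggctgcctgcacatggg
Insig1: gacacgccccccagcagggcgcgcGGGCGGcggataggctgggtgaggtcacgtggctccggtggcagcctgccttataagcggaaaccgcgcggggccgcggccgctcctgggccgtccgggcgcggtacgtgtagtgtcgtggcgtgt

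Over the full 250 bases before the start, CCAAT or its reverse ATTGG was present in 19 of the 21 genes (90.5%), against 37.5% of all genes in the table and 40.0% of those that passed the filter on the arrays. The 2 genes without it were Acat2 and Scap. GGGCGG or its reverse was present in 19 of 21 as well (90.5%), against 35.4% of all genes and 59.1% of those that passed the filter. The E-box CACGTG was found before Hsd17b7, Sc5d, Dhcr7, Scap and Insig1, 5 of 21 (23.8%), against 6.86% of all genes and 9.49% of those that passed the filter. TCACNCCAC was found once, 137 to 129 bases before the start of Hmgcs1, and is present in 1.22% of all genes in the table. Genes with several promoters were counted once if any of them held the motif. These are matches of letters, and no binding was measured.

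Cholesterol genes were lower in kidney than in intestinal epithelium across most of the pathway. With kidney set against the mean of both intestinal groups, 18 of the 26 genes were called lower (69.2%), against 24.8% of all genes tested, and 0 were called higher, against 27.4%. The median difference of the 26 was -1.49 on the log2 scale, and that of all genes tested was 0.00. At the adjusted p alone, 23 were lower, against 35.6% of all genes. In 21 of them every kidney array lay below every intestinal array, an arrangement found in 27.8% of all genes. Since the samples are bulk RNA, fewer cells of a type that expresses these genes and less RNA per cell cannot be told apart.

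Set against each intestinal group alone, kidney was called lower for 15 of 26 genes against MHCIIhi, where the background was 22.8% of all genes, and for 19 of 26 against MHCIIlo, where it was 27.8%. The median differences were -1.25 and -1.79, beside -0.02 and 0.04 for all genes tested. These fits share the kidney arrays with each other and with the first comparison.

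**Figure D1:**
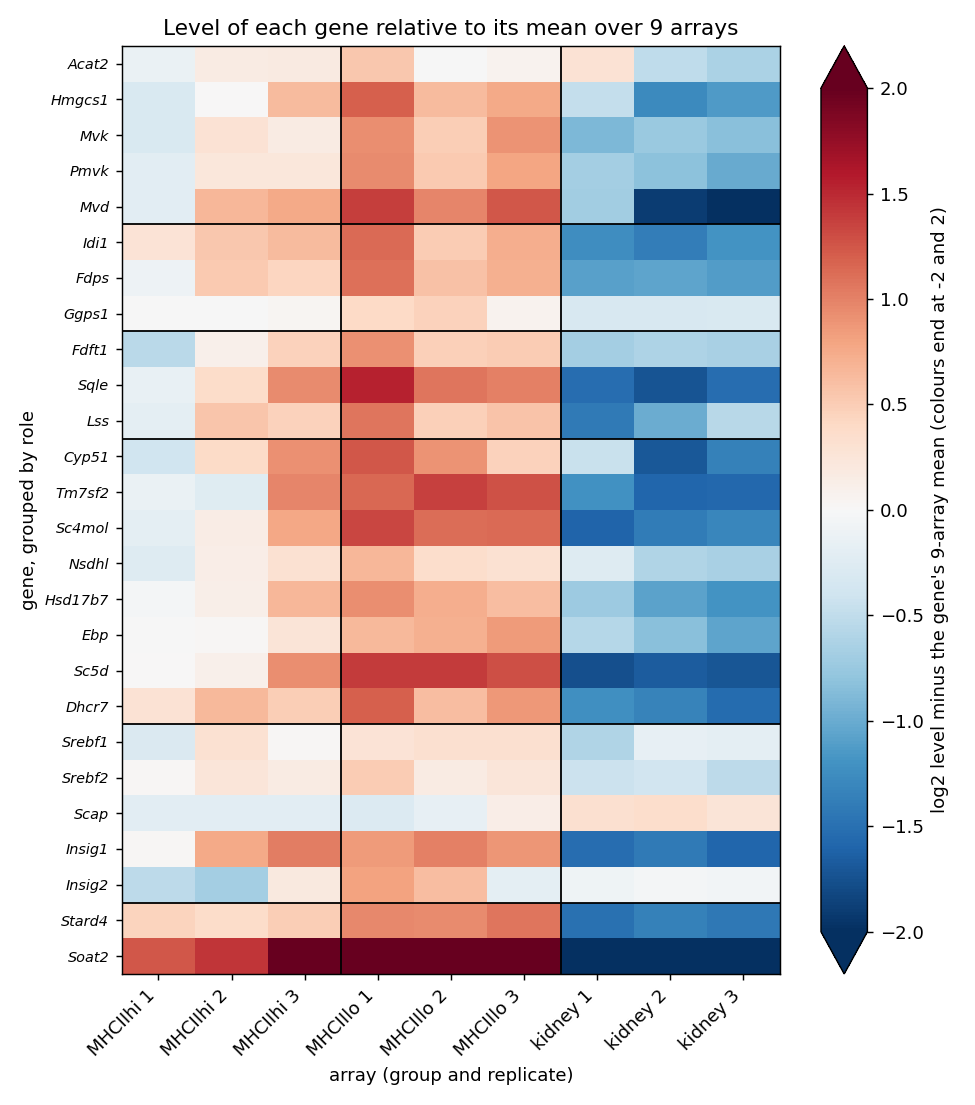
Heat map of the 26 genes (rows, ordered by role with lines between the roles) on the 9 arrays (columns), coloured by log2 level minus the gene's mean over the arrays, with colours ending at -2 and 2. The kidney columns are blue except for Scap, for Acat2 on kidney 1 and for the near-white Insig2, and MHCIIhi 1 is the palest of the intestinal columns.

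Of the 5 genes of the entry and mevalonate steps, 4 were called lower in kidney. Hmgcs1, whose product joins acetyl groups into HMG-CoA, had levels of 4.85, 5.16 and 5.79 (MHCIIhi), 6.35, 5.79 and 5.91 (MHCIIlo) and 4.68, 3.89 and 4.02 (kidney). Kidney lay 1.45 ± 0.27 (SE) below the intestine in log2 (2.72-fold, adjusted p = 0.00102). The kidney arrays all lay below the lowest intestinal array, the first of them by a small margin.

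Mvk and Pmvk encode the kinases that phosphorylate mevalonate in turn. Mvk stood at -0.99, -0.39 and -0.51 (MHCIIhi), 0.25, -0.18 and 0.22 (MHCIIlo) and -1.58, -1.42 and -1.51 (kidney), where it was 2.36-fold below the intestine (adjusted p = 0.00025). For Pmvk the arrays read 3.55, 3.98 and 3.98, then 4.70, 4.27 and 4.55, and in kidney 3.07, 2.93 and 2.75, a 2.38-fold difference (adjusted p = 0.000162). All 3 groups of both genes were separated from each other without overlap.

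Mvd decarboxylates the product of these kinases to isopentenyl diphosphate and had the widest spread within kidney of all 26 genes (SD 0.80, n = 3). Its levels were 0.40, 1.27 and 1.37 (MHCIIhi), 1.99, 1.59 and 1.85 (MHCIIlo) and -0.08, -1.28 and -1.60 (kidney). The kidney mean was 5.28-fold below the intestinal mean (log2 -2.40 ± 0.35, adjusted p = 0.000262), with the first kidney array closest to the intestine. Acat2, which encodes the cytosolic thiolase at the entry to the pathway, was not called in any comparison (kidney minus intestine -0.42 ± 0.24, adjusted p = 0.141), and its arrays ranged from -0.87 to 0.30. Its probe also lists the transcript of the near-identical neighbour Acat3, so its signal may be shared.

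Of the isoprenoid steps, Idi1 and Fdps were called lower in kidney. Idi1, the isomerase that readies isopentenyl diphosphate for chain building, read 3.10, 3.37 and 3.45 (MHCIIhi), 3.96, 3.33 and 3.55 (MHCIIlo) and 1.58, 1.44 and 1.63 (kidney), where it was 3.76-fold lower (adjusted p = 1.29e-05). Fdps, farnesyl diphosphate synthase, read 2.11, 2.73 and 2.64, then 3.32, 2.80 and 2.93, against 1.12, 1.16 and 1.1 in kidney, 3.09-fold lower (adjusted p = 5.49e-05). In both genes the kidney arrays stood together, with SDs of 0.10 and 0.03, at a distance from the 6 intestinal arrays. Ggps1, which makes geranylgeranyl diphosphate and so leads away from sterols, was not called: its 9 arrays ranged from -0.12 to 0.65 and the kidney difference was -0.47 ± 0.14 (adjusted p = 0.0135).

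Squalene and lanosterol are formed by the products of Fdft1, Sqle and Lss. Fdft1, squalene synthase, had levels of 1.53, 2.17 and 2.52 (MHCIIhi), 2.98, 2.54 and 2.57 (MHCIIlo) and 1.39, 1.45 and 1.42 (kidney). It fell just short of the size threshold (-0.97 ± 0.22, adjusted p = 0.00375) and was called against MHCIIlo alone (-1.28 ± 0.26, adjusted p = 0.00176). Without MHCIIhi 1, the lowest intestinal array for this gene, the kidney difference was -1.1 and was called, as it was without MHCIIlo 2 (-1.01). The second Fdft1 probe, well above background on 7 arrays, gave -1.52 ± 0.26, and -1.62 ± 0.29 against MHCIIhi. With the mean of both probes Fdft1 was called lower against the intestine and against MHCIIhi. In the authors' value table it was called against the intestine.

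Sqle, the monooxygenase that starts the oxygen-dependent part of the pathway, had levels of 2.66, 3.17 and 3.75 (MHCIIhi), 4.34, 3.88 and 3.82 (MHCIIlo) and 1.28, 1.08 and 1.29 (kidney). Kidney was 5.23-fold below the intestine (-2.39 ± 0.24, adjusted p = 2.41e-05), and the 3 groups did not overlap. Lss, which closes squalene's rings to lanosterol, read 0.05, 0.80 and 0.71 (MHCIIhi), 1.32, 0.72 and 0.81 (MHCIIlo) and -1.17, -0.75 and -0.31 (kidney), where it was 2.79-fold lower (adjusted p = 0.000745).

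The largest block, the 8 enzymes that turn lanosterol into cholesterol, held 7 genes called lower in kidney. Cyp51, which removes lanosterol's first methyl group, read -0.04, 0.74 and 1.27 (MHCIIhi), 1.60, 1.26 and 0.82 (MHCIIlo) and -0.09, -1.34 and -0.99 (kidney). The difference was 3.37-fold (adjusted p = 0.00192), although the first kidney array came close to the first MHCIIhi array. Tm7sf2, a sterol reductase that follows, read 2.95, 2.85 and 4.06 (MHCIIhi), 4.23, 4.45 and 4.36 (MHCIIlo) and 1.87, 1.5 and 1.52 (kidney), where it was 4.56-fold lower (adjusted p = 8.38e-05).

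Sc4mol, Nsdhl and Hsd17b7 act together to strip the remaining methyl groups. Sc4mol, the oxygenase of the set, had levels of 4.59, 4.93 and 5.55 (MHCIIhi), 6.11, 5.90 and 5.91 (MHCIIlo) and 3.18, 3.38 and 3.48 (kidney), where it was 4.45-fold lower (adjusted p = 2.07e-05). Hsd17b7, the ketoreductase, stood at 2.73, 2.88 and 3.43, then 3.69, 3.49 and 3.39, and in kidney at 2.04, 1.69 and 1.57, 2.83-fold lower (adjusted p = 0.000128). Nsdhl, the dehydrogenase, was not called: it ranged from -0.18 to 0.22 in kidney and from 0.22 to 1.14 in the intestine (-0.75 ± 0.18, adjusted p = 0.00484), so that kidney and MHCIIhi met at the value of 0.22.

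Ebp, Sc5d and Dhcr7 complete the sterol nucleus. Ebp, an isomerase, read 5.42, 5.45 and 5.69 (MHCIIhi), 6.08, 6.14 and 6.28 (MHCIIlo) and 4.87, 4.59 and 4.38 (kidney), where it was 2.34-fold lower (adjusted p = 0.000106). Sc5d, a desaturase, read 3.04, 3.13 and 3.96, then 4.42, 4.42 and 4.31, and in kidney 1.27, 1.36 and 1.31, 5.93-fold lower (-2.57 ± 0.21, adjusted p = 6.35e-06). Dhcr7, the reductase of the last step, stood at 3.13, 3.49 and 3.34, then 4.04, 3.46 and 3.71, and in kidney at 1.62, 1.5 and 1.30, 4.15-fold lower (adjusted p = 7.88e-06). Sc5d was thus the synthesis enzyme with the largest difference by its brightest probe, and its kidney arrays lay close together.

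Of the sterol-sensing genes, the feedback gene Insig1 was called lower in kidney and the other 4 were not called in any comparison. Insig1, itself a target of the factors it restrains, had levels of -0.12, 0.62 and 0.88 (MHCIIhi), 0.71, 0.86 and 0.75 (MHCIIlo) and -1.67, -1.56 and -1.73 (kidney). Kidney was 4.83-fold lower (-2.27 ± 0.21, adjusted p = 1.57e-05), with no overlap. Insig2, the second retention protein, read 1.75, 1.60 and 2.47 (MHCIIhi), 3.08, 2.90 and 2.08 (MHCIIlo) and 2.19, 2.24 and 2.22 (kidney), so that the kidney arrays lay within the intestinal range (-0.09 ± 0.27, adjusted p = 0.767).

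Scap, the escort, was the 1 gene of the 26 with every kidney array above every intestinal one. It stood at 3.13 on each MHCIIhi array, at 3.06, 3.17 and 3.47 in MHCIIlo and at 3.66, 3.69 and 3.59 in kidney, a difference of 0.47 ± 0.14 (adjusted p = 0.0141) that was below the size threshold. Srebf1, which encodes the factors best known for fatty acid synthesis genes, read 3.17, 3.77 and 3.48 (MHCIIhi), 3.73, 3.78 and 3.78 (MHCIIlo) and 2.86, 3.30 and 3.26 (kidney) (-0.48 ± 0.18, adjusted p = 0.0359), with kidney and MHCIIhi overlapping.

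Srebf2, the main driver of cholesterol genes, read 4.39, 4.62 and 4.54 (MHCIIhi), 4.88, 4.54 and 4.61 (MHCIIlo) and 3.94, 3.99 and 3.85 (kidney) by its brightest probe, a difference of -0.67 ± 0.14 (adjusted p = 0.00218). The kidney arrays all lay below the intestinal ones, but by less than the size threshold. The gene's other 3 probes gave -1.37, -1.73 and -1.92, and with the mean of its probes Srebf2 was called lower at -1.42 (adjusted p = 1.5e-05).

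**Figure D2:**
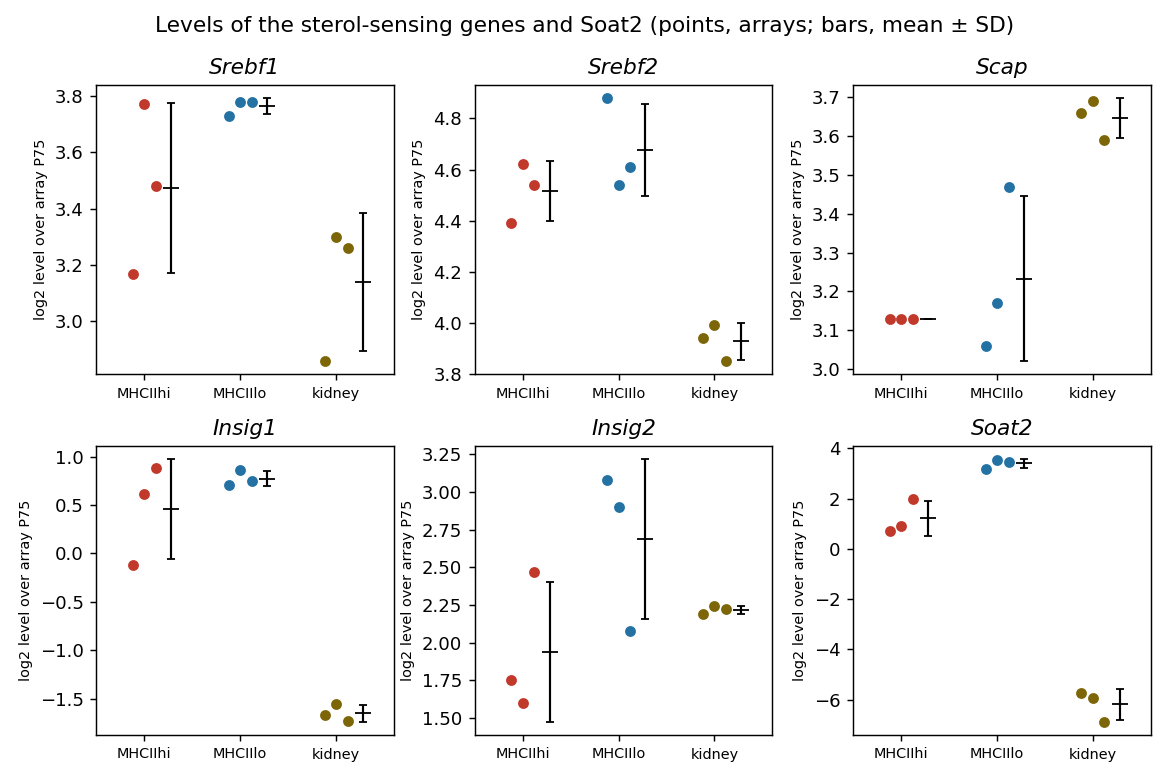
Levels of 5 sterol-sensing genes and Soat2 on each array (points; log2 over the array's 75th percentile, with a scale of its own in each panel) with the mean and SD of each group (bars, n = 3). Insig1 and Soat2 separate kidney from the intestine, the kidney arrays of Insig2 lie within the intestinal range, and those of Scap lie above all others.

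Both genes that act on finished sterol were called lower in kidney. Stard4, a soluble sterol carrier, read 3.52, 3.44 and 3.57 (MHCIIhi), 4.03, 4.02 and 4.14 (MHCIIlo) and 1.58, 1.72 and 1.64 (kidney), where it was 4.42-fold lower (-2.14 ± 0.12, adjusted p = 7.58e-07). Soat2, the enzyme that esterifies cholesterol for lipoprotein assembly in enterocytes and hepatocytes and that shares the alias ACAT2 with the unrelated thiolase gene, had levels of 0.72, 0.91 and 2.0 (MHCIIhi), 3.19, 3.55 and 3.45 (MHCIIlo) and -5.74, -5.93 and -6.88 (kidney). It was well above background on all 6 intestinal arrays and on 2 of the 3 kidney arrays. Its difference of -8.48 ± 0.34 (358-fold, adjusted p = 8.94e-08) was the largest of the 26 genes. Its size depended on the background correction, since the kidney signal is near background: the difference was -5.47 under normexp and -8.77 in the authors' value table, the smallest and largest of the settings tried.

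**Figure D3:**
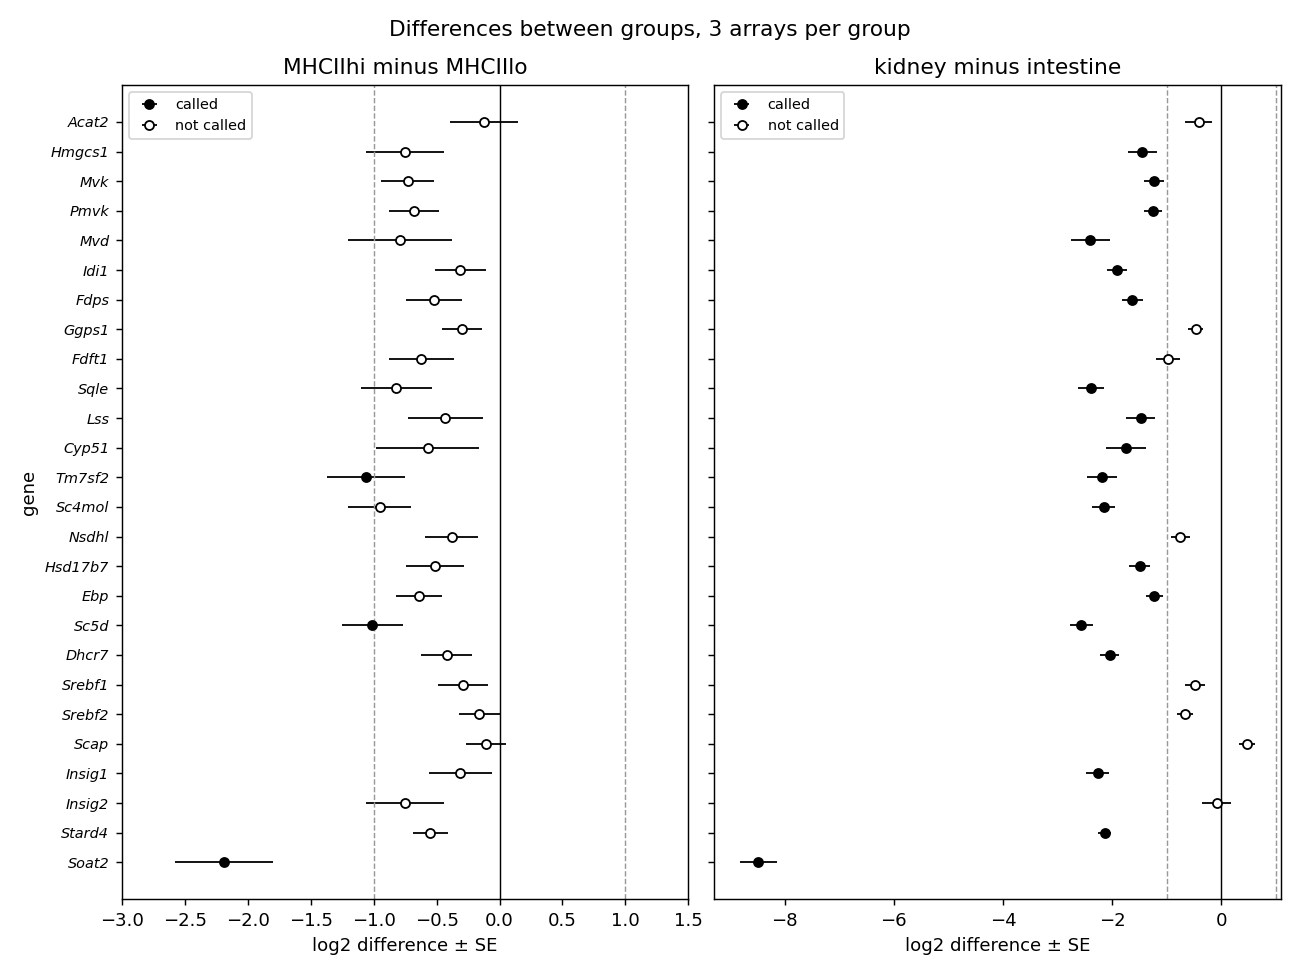
Log2 difference ± SE of each of the 26 genes in MHCIIhi minus MHCIIlo and in kidney minus intestine (limma fit of 9 arrays, 3 per group). Filled points were called, open points were not, and dashed lines mark the size threshold of 1. All 26 points lie left of 0 for MHCIIhi minus MHCIIlo, and all but Scap for kidney minus intestine.

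Probes of the same gene did not always give the same difference between kidney and intestine. Of the 17 genes with several probes, 3 had probes of both signs: Ggps1, Lss and Sc5d. For Sc5d the second probe, annotated to a cDNA entry and not to the RefSeq transcript, gave 0.58 ± 0.20 where the brightest gave -2.57, and with the mean of both the gene was not called (-1.0). Lss had 1 such cDNA probe at 0.40 ± 0.28 beside a pair at -1.48 and -1.44, and was not called with the mean of its probes (-0.84). The other Ggps1 probes gave 0.72 and 0.04. In contrast, further probes gave larger differences than the brightest for Hmgcs1 (-2.47 and -1.60), Idi1 (-3.11), Fdft1 (-1.52), Insig1 (-2.65) and Stard4 (-3.26 and -3.22). For Insig2 a second probe gave -0.94. For Dhcr7 the second probe gave a smaller difference than the brightest, -1.15 against -2.05.

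**Figure D4:**
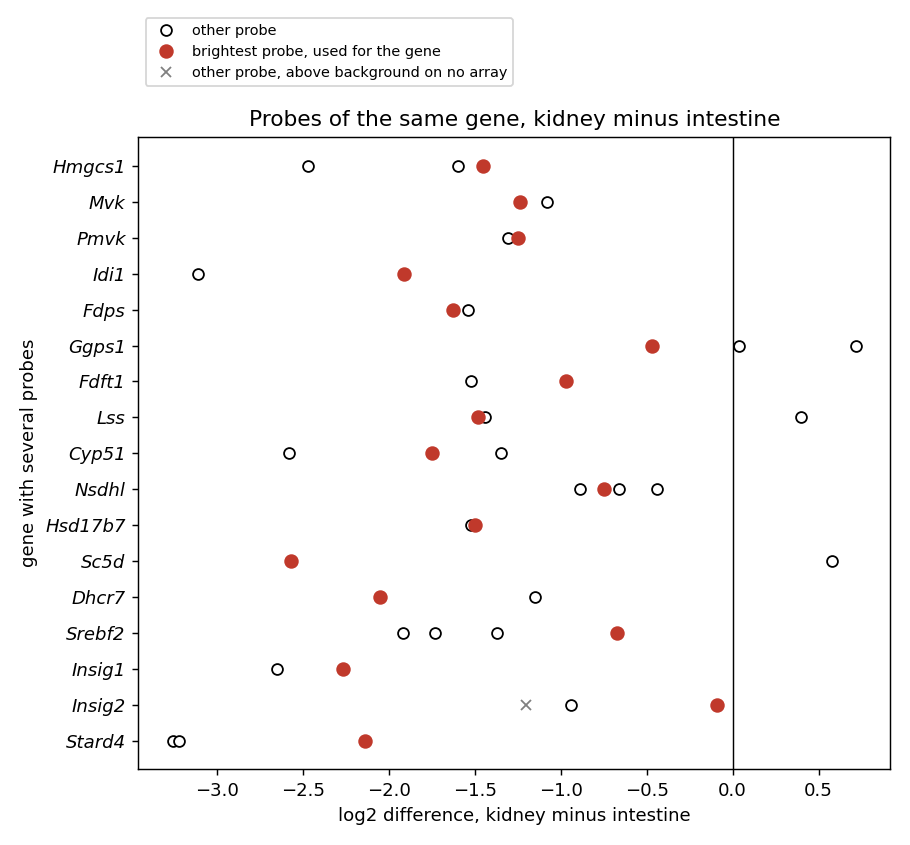
Log2 difference, kidney minus intestine, for each probe of the 17 genes that have several. Red points are the brightest probe, used for the gene, open points the others, and the cross a probe well above background on no array. Probes of Ggps1, Lss and Sc5d fall on both sides of 0, and all 4 probes of Srebf2 lie below it.

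The kidney differences of 13 of the 18 called genes were called under every setting in which they were tested, of 22 tried for this comparison, and the exceptions were Ebp, Hmgcs1, Lss, Pmvk and Sc5d. Under quantile normalization Hmgcs1 (-0.83), Pmvk (-0.77) and Ebp (-0.54), and under normexp background correction Pmvk (-0.96) and Ebp (-0.90), did not reach the size threshold, while their adjusted p stayed below 0.05.

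Between the intestinal groups most differences were small by the brightest probe, and their count of calls was not above the background. In MHCIIhi minus MHCIIlo, 3 of 26 genes were called lower (11.5%), against 16.1% of all genes tested, and 0 were called higher, against 14.9%. The median was -0.56 beside -0.24 for all genes. By the brightest probe all 26 differences were negative, as were 58.9% of those of all genes. The number was 22 under quantile normalization, 23 under normexp background correction and 24 with slide as a fixed block, and Dhcr7, Fdft1, Ggps1 and Lss had probes of both signs. At the adjusted p alone 9 were lower (34.6%), against 28.5% of all genes, and in 13 (50%) every MHCIIhi array lay below every MHCIIlo array, against 32.7%.

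Soat2 differed most, with 4.55-fold less in MHCIIhi than in MHCIIlo (-2.19 ± 0.39, adjusted p = 0.00334) and no overlap between the arrays. Tm7sf2 (-1.06 ± 0.31, adjusted p = 0.0220) and Sc5d (-1.01 ± 0.24, adjusted p = 0.0104) were the other two, and their levels, listed above, also did not overlap. Sc4mol (-0.95), Sqle (-0.82), Mvk (-0.73), Pmvk (-0.68), Ebp (-0.64) and Stard4 (-0.55) passed the adjusted p but not the size threshold. By the brightest probe, none of the 5 sterol-sensing genes passed the adjusted p. Insig2 differed by -0.75 ± 0.31 (adjusted p = 0.0693), Insig1 by -0.31 ± 0.25, Srebf1 by -0.29 ± 0.20, Srebf2 by -0.16 ± 0.16 and Scap by -0.11 ± 0.16. The second Insig1 probe gave -1.13 ± 0.34.

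By the brightest probe the remaining genes did not pass either. Other probes gave larger differences for Hmgcs1 (-1.26 and -1.02), Fdps (-1.18) and Idi1 (-1.01). Positive values came from probes of Dhcr7 (0.02), Fdft1 (0.21), Ggps1 (0.03 and 0.22) and Lss (0.20). With the mean of each gene's probes, Hmgcs1, Soat2 and Tm7sf2 were called lower, where 3002 of all 19990 genes were. Sc5d, whose second probe gave -0.34, was then not called. The values that follow are again those of the brightest probe. Mvd (-0.79), Hmgcs1 (-0.75), Fdft1 (-0.62), Cyp51 (-0.57), Fdps (-0.52), Hsd17b7 (-0.51), Lss (-0.43), Dhcr7 (-0.42), Nsdhl (-0.38), Idi1 (-0.31), Ggps1 (-0.30) and Acat2 (-0.12) had adjusted p from 0.0686 to 0.721.

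The MHCIIhi arrays were not alike in these genes. MHCIIhi 3, which shares its slide with the MHCIIlo arrays, lay above its group's mean for all 26 genes, and MHCIIhi 1 for 1 of 26. With slide as a fixed block, which sets MHCIIhi 3 alone against the MHCIIlo arrays, the median was -0.27, beside -0.09 for all genes. Soat2 then stood at -1.40, Sc5d at -0.43 and Tm7sf2 at -0.28. With 1 MHCIIhi array in that contrast, only sizes are given and no gene is taken as called. Without MHCIIhi 3, 7 of the 26 genes were called lower, where 4979 of all 19990 genes were. Sc4mol stood at -1.21, Sqle at -1.1, Hmgcs1 at -1.01 and Insig2 at -1.01, beside Soat2, Sc5d and Tm7sf2. Without MHCIIhi 1, MHCIIhi 2 or MHCIIlo 2, Soat2 alone was called, where 1714 to 2191 of all genes were called lower.

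Marker sums also differed between these arrays. The enterocyte sum was 1110, 904 and 2110 (MHCIIhi) and 3000, 4510 and 4300 (MHCIIlo). The summed signal of the 26 cholesterol genes was 224, 265 and 337 (MHCIIhi), 470, 403 and 420 (MHCIIlo) and 145, 129 and 125 (kidney). Both sums were highest on MHCIIhi 3 within its group and higher in MHCIIlo than in MHCIIhi, but their order differed between MHCIIhi 1 and 2 and within MHCIIlo. The proliferation sum was 139, 180 and 89.5 on the MHCIIhi arrays, lowest on MHCIIhi 3. Of the fibroblast genes, 4 of 4 tested were called lower in MHCIIhi, against 16.1% of all genes. The fibroblast sum was 0.235 to 0.341 there and 1.34 to 18.1 in MHCIIlo. Of the 8 secretory genes, 6 were called higher in MHCIIhi and 0 lower, against 14.9% and 16.1% of all genes. They summed to 742 to 1110 there and to 232 to 505 in MHCIIlo. Of the 8 leukocyte genes, 4 were called lower in MHCIIhi and 1, Lyz2, higher. Lyz2 made up most of the leukocyte sums of 98.1 to 173 in MHCIIhi and 14.5 to 48.5 in MHCIIlo. The secretory gene Lyz1 ranked the 9 arrays in the same order as Lyz2, and which cells gave the Lyz2 signal was not tested. In kidney the leukocyte sum was 3.22 to 7.01. Against the intestine 5 of the 8 were called lower there and 2 higher, Csf1r (4.62 ± 0.22) and Cd8a (1.66 ± 0.40). The shares of all genes tested were 24.8% lower and 27.4% higher. The part of these cell types and of the slide in the differences was not tested.

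**Figure D5:**
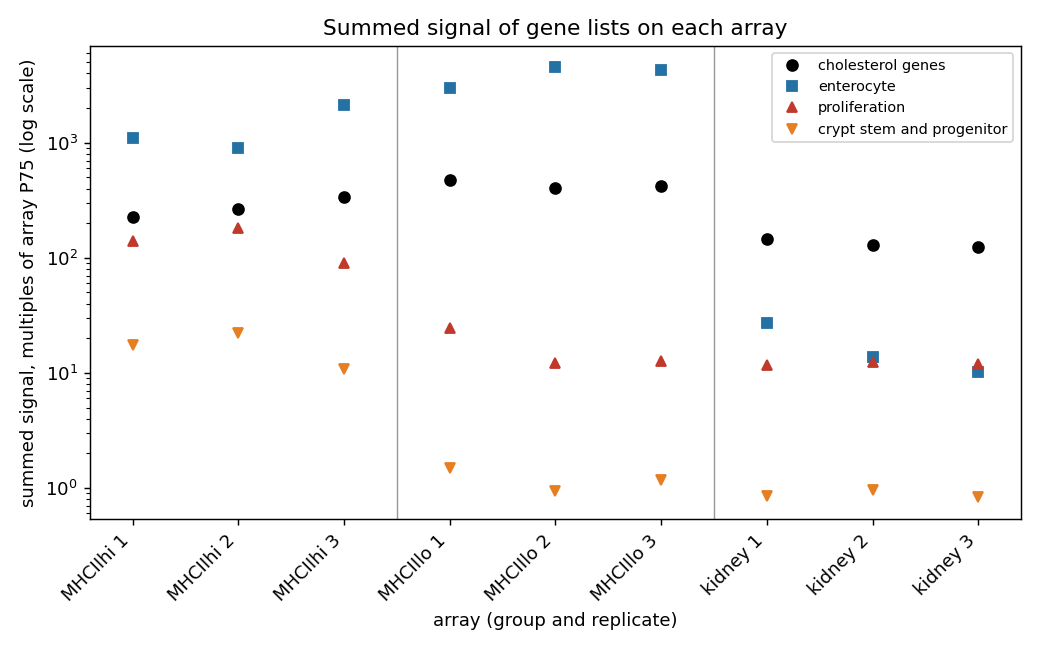
Summed signal, in multiples of the array's 75th percentile on a log axis, of the 26 cholesterol genes and of the enterocyte, proliferation and crypt marker lists on each of the 9 arrays. Heights of different lists are not comparable, and each list is read across arrays. On the MHCIIhi arrays the cholesterol sum runs from 224 to 337, and MHCIIhi 3 has the highest enterocyte sum and the lowest proliferation sum of the 3.

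By group means of the brightest probe, 24 of the 26 genes (92.3%) were highest in MHCIIlo, intermediate in MHCIIhi and lowest in kidney. That order was found in 29.9% of all genes tested. The exceptions were Scap and Insig2. The step between the intestinal groups depended on processing: 22 of the 26 were lower in MHCIIhi under quantile normalization and 23 under normexp. For Dhcr7, Fdft1, Ggps1 and Lss it also depended on the probe. In 13 genes (50%) the order held on all arrays without overlap, against 14.3% of all genes: it did for Soat2, Sqle, Sc5d and Stard4, and did not for Hmgcs1, Idi1, Cyp51 and Dhcr7, whose intestinal groups overlapped.

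Of 20 genes for sterol uptake, export and storage, 7 were called higher (35.0%) and 7 lower (35.0%) in kidney minus intestine, against 27.4% and 24.8% of all genes tested, with a median of 0.13. The largest differences were those of the transport genes Abcg5 and Npc1l1, both lower in kidney. Abcg5, an exporter gene, not well above background on any kidney array, was at least 6290-fold lower in kidney (adjusted p = 2.01e-08), and the cholesterol uptake gene Npc1l1 differed by -10.56 ± 0.31. Abcg8, the partner of Abcg5, differed by -4.37 ± 0.21. Higher in kidney were Scarb1, a receptor for high-density lipoprotein (4.84 ± 0.32), Gramd1a, a sterol transfer protein (4.25 ± 0.25), and Abcg1, a sterol exporter (3.62 ± 0.35). In MHCIIhi minus MHCIIlo, 7 of the 20 were called lower (35.0%) and 1 higher (5.0%), against 16.1% and 14.9% of all genes (median -0.75). Abcg5 (-1.99 ± 0.48), the oxysterol receptor gene Nr1h3 (-1.76 ± 0.37) and Abcg8 (-1.70 ± 0.24) were lower in MHCIIhi, and Soat1, the more widely expressed relative of Soat2, was higher (1.99 ± 0.22).

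Among 16 genes for the processing of sterol-regulated factors and the breakdown of sterol-regulated proteins, 5 were called lower in kidney (31.2%) and 0 higher, against 24.8% and 27.4% of all genes tested, with a median of -0.46. The lower genes were Erlin1 (-1.78 ± 0.26) and Syvn1 (-1.78 ± 0.21), which act in degradation at the endoplasmic reticulum, the vesicle coat genes Sec24d (-1.78 ± 0.17) and Sec23a (-1.73 ± 0.22), and Paqr3 (-1.36 ± 0.17). Of the proteases that cleave the factors, Mbtps1 was not called (-0.39 ± 0.14, adjusted p = 0.0323). In MHCIIhi minus MHCIIlo 1 of the 16 was called higher (6.2%) and 0 lower, below the 14.9% and 16.1% of all genes. The 1 gene was Mbtps2, the second protease. It was well above background on 2 MHCIIhi arrays and on no MHCIIlo array, so that no fold is given. The median was -0.26.

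Fatty acid synthesis genes, several of which are known targets of the Srebf1 factors, were called in kidney minus intestine in shares near those of all genes. Of 15, 5 were called higher in kidney (33.3%) and 3 lower (20.0%), against 27.4% and 24.8%. Their median was 0.57, and it was -0.48 with only the genes above background on all arrays. Among the higher genes was Acacb, the mitochondrial acetyl-CoA carboxylase, at -1.11, -2.34 and -1.89 (MHCIIhi), -3.40, -4.08 and -3.80 (MHCIIlo) and 2.25, 2.24 and 2.31 (kidney), although well above background on only 1 of the 3 MHCIIlo arrays. Thrsp and the glycerolipid synthesis gene Gpam were called higher too. However, they were well above background on only 1 and 2 of the MHCIIhi arrays and on none from MHCIIlo. Against MHCIIlo they were at least 5.46-fold and 2.28-fold higher in kidney. The desaturase gene Fads2 (-2.60 ± 0.23), the synthase gene Fasn (-1.30 ± 0.27) and the cytosolic carboxylase gene Acaca (-1.11 ± 0.24) were lower. In MHCIIhi minus MHCIIlo 2 were called higher (13.3%, against 14.9% of all genes), Acacb (1.98 ± 0.31) and Fads1 (1.51 ± 0.44), and 0 lower, against 16.1%. At the adjusted p alone 7 of the 15 were higher and 0 lower, where 4318 and 5692 of all 19990 genes were. Of the 15 differences 11 were positive, as were 8206 of those of all genes. The median was 0.60, where the median of the cholesterol genes was -0.56.

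In the branch that uses isoprenoids for other ends, 13 of 14 genes were tested. In kidney 2 were called higher (15.4%) and 3 lower (23.1%), neither above the shares of all genes. The higher were Zmpste24 (1.83 ± 0.21) and the ubiquinone gene Coq2 (1.21 ± 0.24), and the lower were the farnesyltransferase subunit gene Fntb (-3.98 ± 0.23), Pdss1 (-1.76 ± 0.21) and Nus1 (-1.57 ± 0.16), with a median of 0.32. Coq2 was also called higher in MHCIIhi than in MHCIIlo (1.67 ± 0.28) and Fntb lower (-1.31 ± 0.27). Each was 1 of the 13 (7.7%), below the 14.9% higher and 16.1% lower of all genes. Among genes for thiolase and ketone body steps, Acat1, the mitochondrial thiolase (1.99 ± 0.17), Oxct1 (1.41 ± 0.22) and Acaa2 (1.06 ± 0.17) were called higher in kidney without overlap.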

How the data were processed

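RNA of the 9 samples was labelled with Cy3 and read on 1-colour Agilent arrays, per the labels, and the file headers name Agilent Feature Extraction 10.5.1.1 as the scanner software. Its deposited processed signal is a linear intensity with background subtracted, per the file headers, and was not scaled between arrays. The value table that the authors deposited is an intensity too. It equalled the processed signal over the array's median within a relative deviation of 2.37e-05, and its making is not stated in these sources.

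Control and outlier spots were left out and spots of a probe averaged (41174 probes). From the processed signal, log2 values were taken and each array's 75th percentile subtracted, and a gene took its brightest probe over the 9 arrays. Genes well above background on all 3 arrays of a group were fitted with limma 3.58.1 in R 4.3.3 (lmFit, eBayes, 3 groups), with Benjamini-Hochberg adjustment over all 19990. Promoter letters were read from RefSeq's table for GRCm38.p6. The limma scripts were tested on simulated data first. The alternatives concerned scaling, background correction, filters, probes, slide or replicate as a block, and each array left out. Figures were drawn with matplotlib 3.10.9 in Python 3.11.15.

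The 26 genes and all lists were chosen with earlier results of these data known. Array values are given for genes called in any comparison and for the sterol-sensing genes. Of each other list, up to 3 called genes per direction without overlap are named, by size; Paqr3, Sec23a and Mbtps1 were named after their values were seen. The results of 1 listed gene are not reported here.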

Additional observations from a re-analysis of the deposited data

How the results depend on the processing

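In MHCIIhi minus MHCIIlo the count of 3 cholesterol genes called lower became 1 under quantile normalization, 1 under normexp background correction, 1 with slide as a random block, 0 with slide as a fixed block and 9 at the adjusted p alone, and ranged from 1 to 7 with 1 array left out. Over all 19990 genes, 3219 were called lower, which became 2371 under quantile normalization, 1525 under normexp and 1968 with slide as a random block. The count over all genes was 5692 at the adjusted p alone and 1714 to 4979 with 1 array left out. The fixed block leaves 1 MHCIIhi array in the contrast, and lower calls were also fewer there among all genes. No conclusion about the cholesterol genes is therefore drawn from their count under that block. The cholesterol genes' median of -0.56 became -0.32 under quantile normalization, -0.29 under normexp and -0.27 with slide as a fixed block. With 1 array left out this median ranged from -0.72 to -0.36. Relative to the median of all genes it was -0.32, and became 0.21 under normexp and -0.03 with no filter on dim probes, where the median of all genes itself was -0.50 and -0.53. The position of these genes against the rest thus depended on the background correction and on the filter.

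In kidney minus intestine the median of -1.49 became -1.22 under normexp and -1.78 in the authors' value table, which moved the median of all genes to -0.28. Relative to all genes it was -0.75 under normexp, -0.96 with no filter and -1.18 with genes above background on all arrays only. Normexp also moved the share of higher genes among all calls from 52.5% to 29.5%. With both thresholds kept, the 18 calls ranged from 15 under quantile normalization to 20 in the authors' table. Called lower over all 19990 genes were 4949 before these changes, 5004 under quantile normalization and 6207 in the authors' table. At the adjusted p alone 1 gene, Scap, was higher against the intestine, against MHCIIhi and against MHCIIlo, and under quantile normalization 1 was called higher against MHCIIlo.

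Medians of other lists changed sign: sterol uptake, export and storage in kidney minus intestine (-0.16 in the authors' table, -0.18 with all arrays above background, -0.05 to 0.25 with 1 array left out), fatty acid synthesis there (-0.48 with all arrays above background), and in MHCIIhi minus MHCIIlo the thiolase steps (-0.09 with all arrays above background) and the isoprenoid branch (-0.22 with the mean of probes, -0.04 with slide as a fixed block).

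The replicate block left the counts at 3 and 18. Same-numbered arrays did not deviate together throughout (correlations of 0.19, -0.35 and 0.27 between MHCIIhi and MHCIIlo), so the numbers were not taken to pair the samples. The number of arrays limits the precision, and Soat2's kidney value rests on a signal near background. A filter on the groups of each comparison was added after seeing the data and left the counts at 3 and 18.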
